A study of Homo sapiens with 6 samples.

Results

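The genes described here encode the enzymes of the tricarboxylic acid (TCA) cycle, the pyruvate dehydrogenase (PDH) complex with the kinases and phosphatases that control it, the anaplerotic and related enzymes that move carbon into or out of the cycle, and an enzyme that removes 2-hydroxyglutarate. They were chosen by gene name, with no threshold on any value, and comprised 37 of the 60664 genes in the deposited expression table. By role they were 20 TCA cycle enzymes, 4 subunits of the PDH complex, 7 PDH kinases, phosphatases or their regulator, 5 anaplerotic enzymes and a dehydrogenase of 2-hydroxyglutarate. Levels were given as TPM, a transcript abundance per length that is scaled to the same total in every library. A mean of 1 TPM or more over the 6 libraries was reached by 35 of the 37, which were tested within a fit of 14286 genes. OGDHL and PDK4 stayed below it.

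The cells were 67R, an ASK120067-resistant line that the study derived from NCI-H1975 non-small cell lung cancer cells by stepwise exposure to this EGFR inhibitor. Of the 6 RNA-seq libraries, 3 came from 67R cells with a negative control siRNA (labelled NC) and 3 from 67R cells with an siRNA against BCAT1 (labelled siBCAT1). Both groups thus carried the resistant background and a transfection. The comparison asked which transcripts differed after the siRNA against BCAT1. BCAT1 is the cytosolic branched-chain amino acid transaminase that exchanges amino groups between branched-chain amino acids and α-ketoglutarate. Effects of lower BCAT1 and effects of the siRNA on other transcripts cannot be told apart here. A single resistant line was used. The study's methods describe 2 siRNA sequences against BCAT1 and use the name siBCAT1 for the second, and the labels give no time of harvest. They do not say whether the 3 libraries of a group came from separate cultures. The p-values below therefore measure only the spread between these libraries.

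In the TCA cycle, acetyl-CoA condenses with oxaloacetate to citrate, which is oxidised stepwise back to oxaloacetate with release of carbon dioxide and reducing equivalents. The PDH complex turns pyruvate into acetyl-CoA, and is switched off by phosphorylation through PDH kinases and on again by PDH phosphatases. Anaplerosis replaces intermediates that leave the cycle for biosynthesis, while cataplerotic enzymes draw them off, and α-ketoglutarate, an intermediate of the cycle, is also the product or substrate of transaminases such as BCAT1 and a cosubstrate of dioxygenases that demethylate histones and DNA.

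BCAT1 itself, the target of the siRNA, was listed at 42.7, 42.2 and 29.8 TPM in NC and at 8.78, 7.10 and 8.0 TPM in siBCAT1. The groups did not overlap, and the log2 fold change was -2.12 (limma, Benjamini-Hochberg adjusted p = 0.000272). Between 23152 and 25043 genes were above 0 in each library. The number of reads behind each value is unknown because TPM keeps no depth. Of 10 lung adenocarcinoma and epithelial markers, 5 or 6 were above 1 TPM in each library, with keratins KRT7, KRT8 and KRT18 the most abundant. The lung lineage markers SFTPC (0 TPM in every library), NKX2-1, NAPSA and SFTPB were at 0.33 TPM or less. The summed level of that list was 2546 to 2948 TPM in NC and 1648 to 1936 TPM in siBCAT1. Among 8 markers of other cell types, PTPRC, CD3E, PECAM1 and DCN were at 0.33 TPM or less, while COL1A2 and the lysosomal gene CD68 were expressed. The summed level of these 8 was 278 to 306 TPM in NC and 247 to 296 TPM in siBCAT1. KRT7, KRT8, KRT18, KRT19, CDH1 and COL1A1 were called lower and CD68 higher in siBCAT1. The part of these marker differences in the results below was not tested. In a bulk library, fewer cells with a transcript and less transcript per cell cannot be told apart.

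Changes ran in both directions across the pathway. Of the 35 tested members, 7 were called higher in siBCAT1 (CS, IDH3A, OGDH, SDHB, PDHA1, PCK2 and ME1) and 5 lower (IDH1, IDH3B, MDH1, PDK1 and PC) at an adjusted p under 0.05 in the limma test. That is 34.3% of the members, beside 27.1% of all genes tested. By direction, 16.7% of all genes tested were called higher and 10.4% lower. This balance moved with the scaling. Median-ratio scaling called 1957 genes higher and 1802 lower, with 5 and 4 members, and quantile normalization 2042 and 1865, with 5 and 7 members. The GC content and length correction called 6 members higher and 7 lower, so the members' balance turned under that correction and under quantile normalization. The 3 NC libraries and the 3 siBCAT1 libraries did not overlap for 20 members (57.1%), with 12 above and 8 below. Over all genes tested, 44.1% did not overlap, with 26.1% above and 18% below. The median log2 fold change was 0.04 for the members and 0.04 for all genes tested. A size of at least 0.5 on the log2 scale was reached by 7 of the 35 tested members, beside 3080 of the 14286 genes tested. Of the 7 members, PCK2, IDH3A, ME1 and SDHB were called higher, PDK1 and IDH1 lower, and PDK2 was not called. Among the called members, CS, IDH1, IDH3A, MDH1, PDHA1, PDK1 and PC have exons that overlap those of another annotated gene on the opposite strand, and CS also on its own strand. Whether strand was used in quantification is not given in the sources used here, so reads of these genes may be shared with their neighbours. The count of 12 called members became 8 without NC replicate 1, 15 without NC replicate 2, 6 without NC replicate 3, 8 without siBCAT1 replicate 1, 9 without siBCAT1 replicate 2 and 8 without siBCAT1 replicate 3. In the same order, calls over all 14286 genes tested went from 3865 to 2318, 3706, 2503, 2411, 2444 and 2501.

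**Figure D1:**
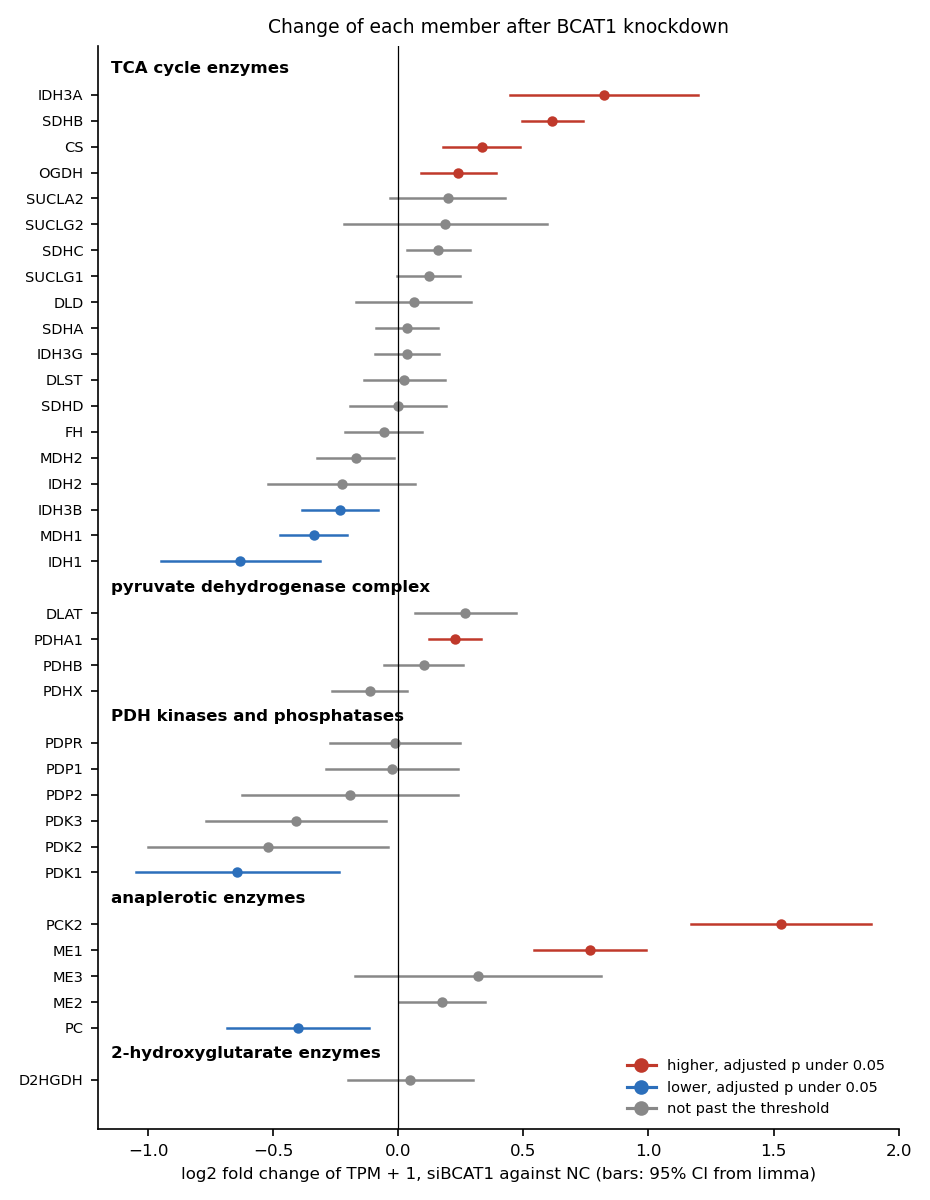
The x axis gives the log2 fold change of TPM + 1 (siBCAT1 against NC, 3 libraries each) of the 35 tested members on the y axis, ordered within their roles, with bars for the 95% confidence interval from limma. Members called higher are red, those called lower blue and the rest grey, and PCK2 at 1.53 and PDK1 at -0.64 mark the ends of the range.

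The transcript of citrate synthase was higher in siBCAT1. Citrate synthase (CS), which joins acetyl-CoA to oxaloacetate, was at 141, 138 and 127 TPM in NC and at 176, 175 and 161 TPM in siBCAT1. The lowest siBCAT1 library was above the highest NC library. CS rose by 1.26-fold in mean TPM (log2 fold change 0.33 ± 0.06 SE, limma adjusted p = 0.00988). Under quantile normalization CS lost its call (adjusted p = 0.0526). The cytosolic enzyme ACO1, which isomerises citrate to isocitrate, belonged to a list of 26 pathway partners outside the members. It was at 26.0 ± 0.558 TPM in NC and 28.96 ± 1.52 TPM in siBCAT1 (SD, n = 3) and was not called (limma adjusted p = 0.173).

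The isocitrate dehydrogenases, which make α-ketoglutarate, moved in different directions. The cytosolic NADP-dependent enzyme IDH1 was at 50.4, 40.0 and 43.0 TPM in NC and at 31.4, 30.6 and 23.4 TPM in siBCAT1. Each siBCAT1 library was below each NC library. IDH1 fell by 0.63 on the log2 scale (SE 0.14, limma adjusted p = 0.0142). Its mitochondrial counterpart IDH2 was at 113, 87.0 and 101 TPM in NC and at 90.6, 93.3 and 73.0 TPM in siBCAT1. Its groups overlapped, and the log2 fold change was -0.23 (95% interval -0.52 to 0.07, limma adjusted p = 0.223). The share of IDH1 in the summed TPM of IDH1 and IDH2 was 30.7 ± 0.880% in NC and 24.9 ± 0.742% in siBCAT1 (SD, n = 3), without overlap between the groups. That difference had p = 0.1 in a two-sided exact permutation test, the smallest value that 3 against 3 libraries can give. The exact permutation p adjusted over the 15 shares, ratios and sums compared here was 0.167. The IDH1 call was lost without NC replicate 1 (limma adjusted p = 0.062) and without NC replicate 3 (0.052).

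The NAD-dependent isocitrate dehydrogenase of the mitochondrial matrix is built from 3 kinds of subunit, and these did not move together. The catalytic subunit IDH3A, from a gene on the plus strand of chromosome 15 (78131498 to 78171949), was at 36.9, 26.4 and 27.99 TPM in NC and at 65.4, 47.3 and 50.9 TPM in siBCAT1. It rose by 1.79-fold in mean TPM (log2 fold change 0.82 ± 0.16 SE, limma adjusted p = 0.00987), and replicate 1 was the highest library in both groups. The regulatory subunit IDH3B, far more abundant, was at 226, 251.35 and 239 TPM in NC and at 189.8, 208 and 212 TPM in siBCAT1. Its groups were separate, and it fell by 0.23 on the log2 scale (SE 0.06, limma adjusted p = 0.0353). IDH3G, the other regulatory subunit, stayed between 98.4 and 105 TPM in the 6 libraries (limma adjusted p = 0.671). As a share of the summed TPM of the 3 subunits, IDH3A was at 8.24 ± 1.69% in NC and 15.1 ± 2.82% in siBCAT1 (SD, n = 3, exact permutation p = 0.1, the smallest possible). Without NC replicate 3 the adjusted p of IDH3A was 0.0501 in limma. The IDH3B call was lost without NC replicate 2 (adjusted p = 0.0735), NC replicate 3 (0.0968), siBCAT1 replicate 1 (0.102), siBCAT1 replicate 2 (0.0784) or siBCAT1 replicate 3 (0.0585), and with median-ratio scaling (0.0552).

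The 2-oxoglutarate dehydrogenase complex oxidises α-ketoglutarate to succinyl-CoA. Its E1 component OGDH was at 34.4, 35.3 and 35.6 TPM in NC and at 43.1, 41.1 and 40.8 TPM in siBCAT1. These levels did not overlap, and OGDH rose by 1.19-fold (log2 fold change 0.24 ± 0.06 SE, limma adjusted p = 0.0306). The call was lost without NC replicate 1 (adjusted p = 0.0785), NC replicate 3 (0.0584), siBCAT1 replicate 1 (0.0846), siBCAT1 replicate 2 (0.0708) or siBCAT1 replicate 3 (0.06). It was also lost under median-ratio scaling (adjusted p = 0.0736) and quantile normalization (0.102). The E2 component DLST was at 242 ± 12.6 TPM in NC and 246 ± 18.2 TPM in siBCAT1 (SD, n = 3, limma adjusted p = 0.827). The E3 component DLD, which the PDH complex shares, was at 91.2 ± 11.03 TPM in NC and 94.8 ± 5.81 TPM in siBCAT1 (SD, n = 3, limma adjusted p = 0.684). OGDHL, a paralogue of OGDH, was listed at 1.27, 1.45 and 1.27 TPM in NC and at 0.39, 0.48 and 0.69 TPM in siBCAT1. The groups were separate, but the mean over all libraries was below the filter. Without the filter its limma adjusted p was 0.0613. MRPS36, a small protein first named as a mitoribosomal subunit and also described as a part of this complex that holds E3, was among the pathway partners. It was at 24.5, 25.9 and 22.7 TPM in NC and at 12.1, 10.6 and 12.04 TPM in siBCAT1. MRPS36 fell by 1.01 on the log2 scale (SE 0.09, limma adjusted p = 0.000592). The ratio of MRPS36 to OGDH, a quantity chosen after the values were seen, was 0.694 ± 0.0515 in NC and 0.278 ± 0.0185 in siBCAT1 (SD, n = 3, exact permutation p = 0.1, the smallest possible).

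Succinyl-CoA ligase, which yields succinate and a nucleoside triphosphate, showed no called subunit. The α subunit SUCLG1 was at 139, 150.4 and 147 TPM in NC and at 159, 155 and 161 TPM in siBCAT1. The NC values were all lower, but SUCLG1 was not called (log2 fold change 0.12, 95% interval -0.00 to 0.25, limma adjusted p = 0.138). The GTP-forming β subunit SUCLG2 was at 15.5 ± 2.58 TPM in NC and 17.9 ± 4.01 TPM in siBCAT1 (SD, n = 3, limma adjusted p = 0.460). The ATP-forming β subunit SUCLA2 was at 17.4 ± 1.01 and 20.1 ± 2.06 TPM, without overlap (limma adjusted p = 0.179). SUCLA2 made up 53.1 ± 4.91% of their sum in NC and 53.2 ± 6.88% in siBCAT1 (SD, n = 3).

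Succinate dehydrogenase, which is also complex II of the respiratory chain, had 1 called subunit of 4. SDHB, at chr1:17018722-17054170 (minus strand, GRCh38), encodes the iron-sulphur subunit that passes electrons from the flavoprotein towards ubiquinone. It was at 117, 119.7 and 122 TPM in NC and at 182, 179 and 190.4 TPM in siBCAT1. The lowest siBCAT1 library was far above the highest NC library. SDHB rose by 1.54-fold (log2 fold change 0.62 ± 0.05 SE, limma adjusted p = 0.000449), and the call was kept in all 14 alternative fits. The flavoprotein SDHA was at 248.6 ± 7.95 TPM in NC and 255 ± 10.2 TPM in siBCAT1 (SD, n = 3), with a 95% interval of the log2 fold change from -0.09 to 0.16. SDHA has pseudogenes, of which SDHAP1, SDHAP2 and SDHAP3 reached 1 TPM, so reads of near-identical sequence could be split between them. The membrane anchor SDHC was at 186, 195 and 179 TPM in NC and at 214, 208 and 203 TPM in siBCAT1, without overlap (log2 fold change 0.16, limma adjusted p = 0.0645). The other anchor SDHD was at 108 TPM in both groups (limma adjusted p = 0.994). SDHC passed the threshold without NC replicate 2 (limma adjusted p = 0.0346). SDHB made up 18.0 ± 0.471% of the summed TPM of the 4 subunits in NC and 24.3 ± 0.779% in siBCAT1 (SD, n = 3, exact permutation p = 0.1, the smallest possible), a share chosen after the values were seen. The promoter of SDHB is shown because SDHB was the only subunit of the 4 that was called. GCGCATGC, the core of the motif of nuclear respiratory factor NRF1, was searched on both strands in the RefSeq promoter table, which lists 34 of the 37 members. It was found for 3 of them, SDHB, SDHD and DLD (8.82%), and for 3.68% of the 27305 genes in the table. The SDHB stretch lies at chr1:17054205-17054264 on the minus strand of GRCh38.p14, outside the annotated gene, from position -232 to -173 relative to the RefSeq start. Capitals mark the motif, which reads GCATGCGC on this strand.
SDHB: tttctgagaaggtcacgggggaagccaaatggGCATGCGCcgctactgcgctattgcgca

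**Figure D2:**
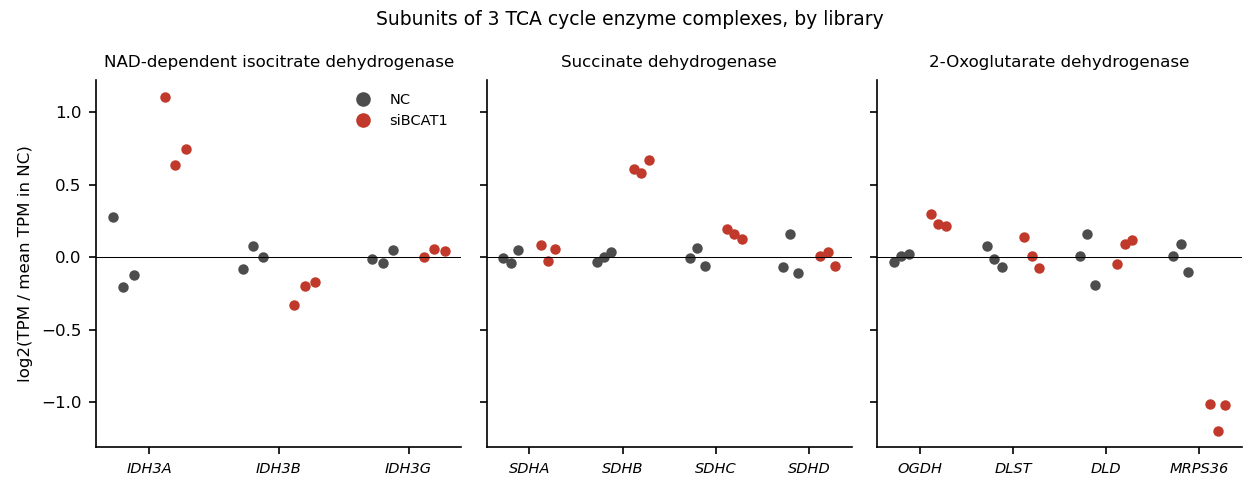
Each point is 1 library, and the y axis gives log2 of its TPM over the mean TPM in NC, for the subunits of NAD-dependent isocitrate dehydrogenase, succinate dehydrogenase and 2-oxoglutarate dehydrogenase on the x axes, with NC in grey and siBCAT1 in red. The siBCAT1 points of IDH3A, SDHB, SDHC and OGDH stand above, and those of IDH3B and MRPS36 below, the NC libraries. The points of IDH3G, SDHA, SDHD, DLST and DLD overlap between the groups.

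Of the enzymes of the last steps, MDH1 was called lower, and FH and MDH2 were not called. Fumarase (FH), which hydrates fumarate to malate, was at 109 ± 7.52 TPM in NC and 104 ± 1.69 TPM in siBCAT1 (SD, n = 3, limma adjusted p = 0.547). The cytosolic malate dehydrogenase MDH1, a partner in the malate-aspartate shuttle, was at 128, 133 and 131 TPM in NC and at 100.4, 109 and 100.4 TPM in siBCAT1. The groups were well apart, and MDH1 fell by 0.34 on the log2 scale (SE 0.06, limma adjusted p = 0.00595). It stayed past the threshold in all 14 alternative fits. The mitochondrial enzyme MDH2, which closes the cycle, was at 216, 193 and 221 TPM in NC and at 189, 179 and 189.7 TPM in siBCAT1. These groups did not overlap either (log2 fold change -0.17, 95% interval -0.33 to -0.02, limma adjusted p = 0.0976). Leaving out NC replicate 2 brought MDH2 past the threshold as lower (limma adjusted p = 0.0221), and so did quantile normalization (0.0204) and the GC content and length correction (0.031). The share of MDH1 in the sum of the 2 malate dehydrogenases was 38.5 ± 2.09% in NC and 35.7 ± 1.88% in siBCAT1, and the groups overlapped (SD, n = 3, exact permutation p = 0.3).

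**Figure D3:**
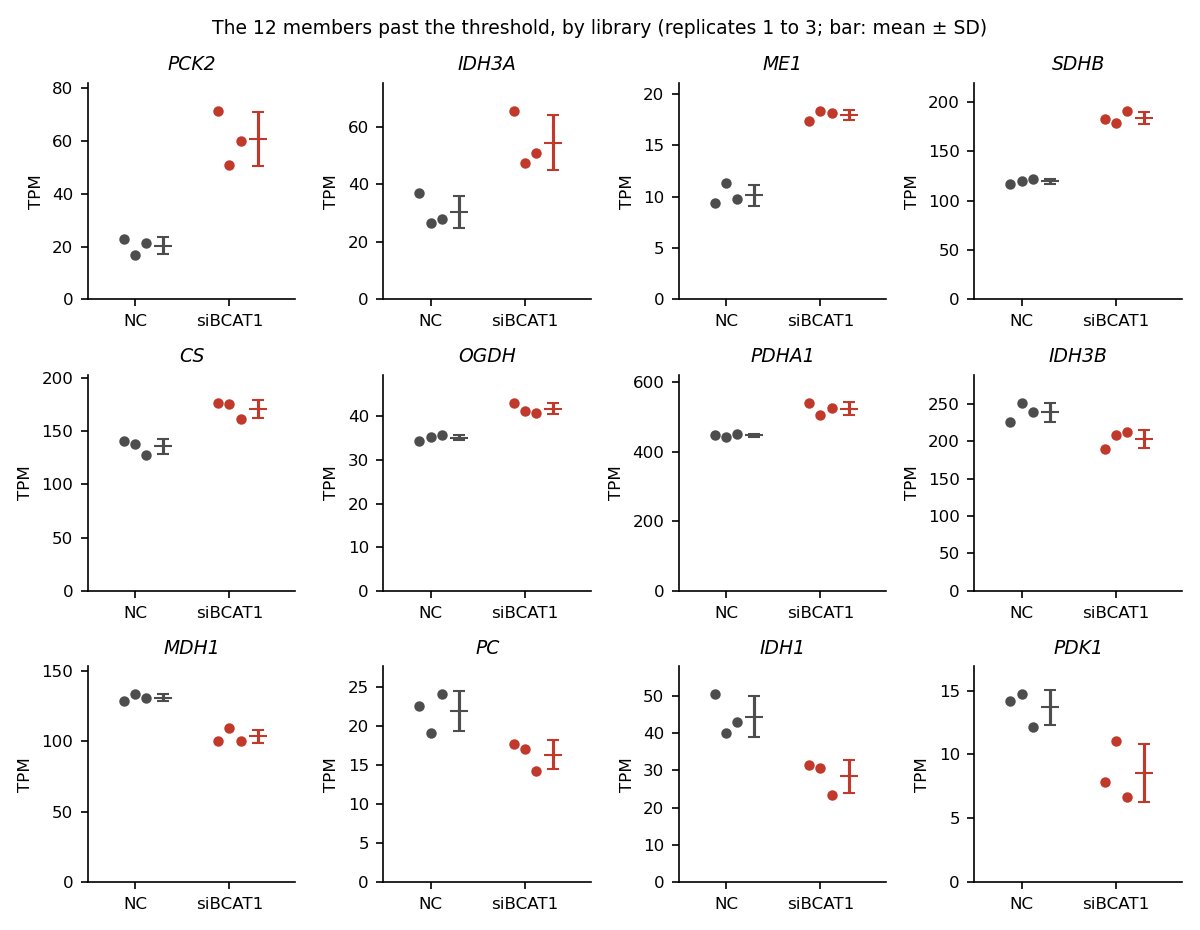
Each panel gives the TPM (y axis, from 0) of 1 of the 12 called members in the 3 NC and the 3 siBCAT1 libraries (points, replicates 1 to 3 from left to right), with the mean ± SD beside them. In each panel the points of the groups do not overlap, from PCK2, where NC ends at 23.0 and siBCAT1 begins at 50.9 TPM, to PDK1, where siBCAT1 ends at 11.1 and NC begins at 12.2 TPM.

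In the PDH complex itself, the E1α subunit PDHA1, which carries the serines that the kinases phosphorylate, was the most abundant member of the whole list. PDHA1 was at 447, 442 and 451 TPM in NC and at 540.1, 504 and 526 TPM in siBCAT1. Again there was no overlap, and PDHA1 rose by 1.17-fold (log2 fold change 0.23 ± 0.04 SE, limma adjusted p = 0.00987). The E1β subunit PDHB was at 77.4 ± 3.45 TPM in NC and 83.1 ± 4.56 TPM in siBCAT1 (SD, n = 3, limma adjusted p = 0.310). The E2 component DLAT was at 51.0, 58.4 and 48.0 TPM in NC and at 66.1, 63.0 and 60.6 TPM in siBCAT1. DLAT was separate between the groups but not called (log2 fold change 0.27, limma adjusted p = 0.0570). The E3-binding protein PDHX was at 49.4 ± 0.659 TPM in NC and 45.6 ± 1.97 TPM in siBCAT1 (limma adjusted p = 0.232). PDHA1 lost its call under median-ratio scaling (adjusted p = 0.057) and GC content and length correction (0.0531). PDHX was called lower under the latter (adjusted p = 0.0467) and under quantile normalization (0.0455). DLAT was called higher without NC replicate 2 (limma adjusted p = 0.0169).

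The expressed PDH kinases, which inactivate the complex, were lower in mean TPM in siBCAT1, though only PDK1 passed the test. PDK1, a known target of hypoxia-inducible factor, was at 14.2, 14.7 and 12.2 TPM in NC and at 7.88, 11.1 and 6.69 TPM in siBCAT1. The groups were separate by a narrow gap. PDK1 fell by 0.64 on the log2 scale (SE 0.17, limma adjusted p = 0.0320). PDK2, the most abundant of the 4 kinases, was at 32.6, 19.5 and 30.1 TPM in NC and at 15.0, 20.2 and 20.4 TPM in siBCAT1 (log2 fold change -0.52 ± 0.20 SE, limma adjusted p = 0.102). NC replicate 2 was the lowest of its group and lay within the range of the siBCAT1 libraries. PDK3 was at 16.0, 10.6 and 12.7 TPM in NC and at 9.94, 10.1 and 8.50 TPM in siBCAT1, with no overlap and a log2 fold change of -0.41 ± 0.15 SE (limma adjusted p = 0.0907). PDK4, a kinase induced by fasting in many tissues, was listed at 0.12 to 0.36 TPM in every library and was not tested. The PDK1 call was lost without NC replicate 1 (adjusted p = 0.118), NC replicate 2 (0.0893), NC replicate 3 (0.0665), siBCAT1 replicate 1 (0.11) or siBCAT1 replicate 3 (0.0942). Without NC replicate 2, both PDK2 (limma adjusted p = 0.0185) and PDK3 (0.0387) were called lower.

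Summed over the 4 genes, kinase transcripts came to 63.0, 44.9 and 55.4 TPM in NC and to 33.0, 41.5 and 35.9 TPM in siBCAT1. The sum, chosen after the values were seen, did not overlap between the groups. Its means were 54.4 ± 9.09 and 36.8 ± 4.35 TPM (SD, n = 3, exact permutation p = 0.1, the smallest possible). PDK2 made up 49.9 ± 5.73% of the sum in NC and 50.3 ± 5.80% in siBCAT1 (SD, n = 3, exact permutation p = 1). The shares of PDK1 and PDK3 also overlapped between the groups (exact permutation p = 0.7 and 0.5). Set against their substrate, the summed kinases over PDHA1 gave ratios of 0.141, 0.102 and 0.123 in NC and of 0.0611, 0.0825 and 0.0683 in siBCAT1. The ratios of the groups were separate (exact permutation p = 0.1, the smallest possible). None of the opposing phosphatase genes was called. The catalytic subunit PDP1 was at 20.2 ± 2.40 TPM in NC and 19.8 ± 1.86 TPM in siBCAT1 (SD, n = 3, limma adjusted p = 0.898). Its isoform PDP2 was at 12.4 ± 2.98 and 10.7 ± 2.02 TPM (limma adjusted p = 0.475), and the regulatory subunit PDPR at 19.99 ± 2.43 and 19.7 ± 1.55 TPM (limma adjusted p = 0.942). The ratio of summed kinases to summed catalytic phosphatases was 1.67 ± 0.188 in NC and 1.23 ± 0.279 in siBCAT1 (SD, n = 3, exact permutation p = 0.1, the smallest possible). Its groups were separate by a narrow margin, with 1.514 as the lowest NC and 1.505 as the highest siBCAT1 value.

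**Figure D4:**
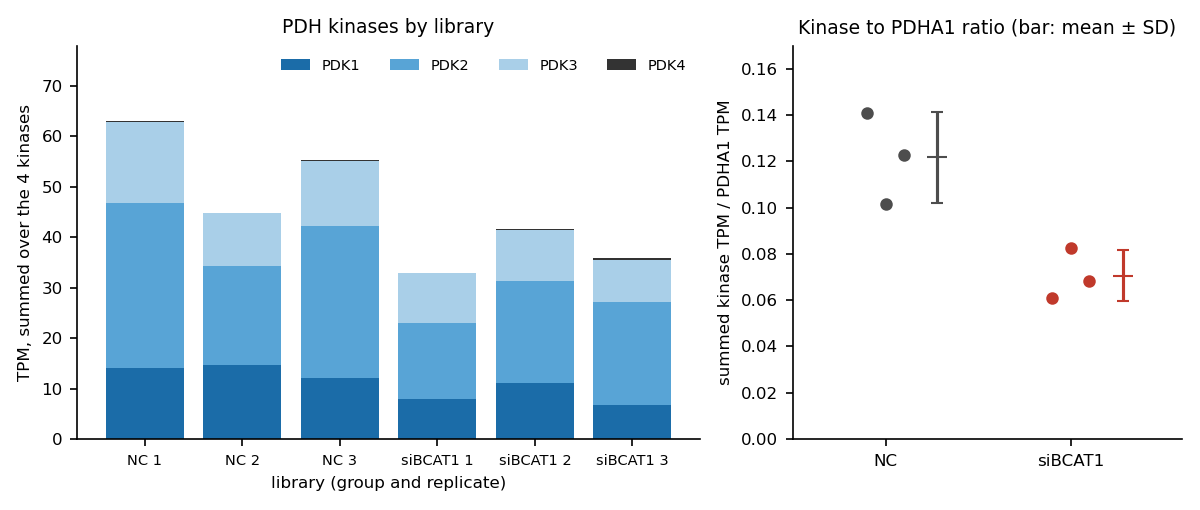
Left, the bars stack the TPM of PDK1, PDK2, PDK3 and PDK4 (y axis, from 0) in each of the 6 libraries on the x axis, reaching 44.9 to 63.0 TPM in NC and 33.0 to 41.5 TPM in siBCAT1. Right, the ratio of the summed kinases to PDHA1 is given per library with the mean ± SD, and the 3 siBCAT1 points lie below the 3 NC points.

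The promoters of these kinases are shown because the hypoxia response element, with its core ACGTG, is a motif through which PDK1 is known to be controlled. In windows of 250 bases before to 50 bases after each RefSeq start, ACGTG on either strand was found for 13 of the 34 members listed there (38.2%) and for 24.9% of 27305 genes. PDK1, PDK2 and PDK3 each held it. So did 3 of the 5 members called lower (IDH1, PC and PDK1), and 0 of the 6 members called higher that the table lists. MDH1 and IDH3B, also called lower, were without it. MDH1 kept its call in all 14 alternative fits, while IDH1, PC and PDK1 each lost theirs in some. The motif counts are a description, and no difference between them was tested. The remaining members with ACGTG were DLAT, IDH3G, ME3, OGDHL, PDHB, PDHX, PDK2, PDK3, PDP2 and PDPR, none of them called. Genes differ in how many starts the table gives. Counted by window, the share was 31.9% of 47 member windows beside 21.4% of 35116. For the members called lower it was 3 of 10 windows (30%), and for those called higher 0 of 6. ACGTG is also part of the palindrome CACGTG, where it matches on both strands, as in PDK2. TGATGNAA, the core of the CEBP-ATF response element of the amino acid stress response, was in the windows of 0 of the 34 members and of 4.46% of all genes. This says only that these letters were not in these windows. Capitals mark ACGTG or its reverse complement CACGT in stretches of GRCh38.p14 ahead of a RefSeq start, read on the strand of the gene. The PDK1 stretch is at chr2:172556060-172556089 (plus strand, within an annotated exon of the gene). That of PDK2 is at chr17:50095188-50095247 (plus strand, inside the gene and outside its exons), and that of PDK3 at chrX:24465208-24465237 (plus strand, across the annotated start of the gene). The IDH1 stretch is at chr2:208254545-208254604 (minus strand, in an intron, ahead of an internal start), and that of PC at chr11:66958522-66958581 (minus strand, outside the gene).
PDK1: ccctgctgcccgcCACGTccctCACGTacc
PDK2: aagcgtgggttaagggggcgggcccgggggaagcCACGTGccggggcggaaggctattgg
PDK3: cccctcgcgcgccgcgtACGTGcagcaacc
IDH1: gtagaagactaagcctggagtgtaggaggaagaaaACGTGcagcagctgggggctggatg
PC: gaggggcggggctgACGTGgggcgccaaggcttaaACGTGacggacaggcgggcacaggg

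The anaplerotic enzymes held the largest change among the members. PCK2 is the mitochondrial carboxykinase that draws oxaloacetate out of the cycle as phosphoenolpyruvate, and a known target of the amino acid stress factor ATF4. It was at 23.0, 16.8 and 21.3 TPM in NC and at 71.3, 50.9 and 60.2 TPM in siBCAT1. Each siBCAT1 library was more than 2 times the highest NC library. PCK2 rose by 2.98-fold in mean TPM (log2 fold change 1.53 ± 0.15 SE, 95% interval 1.17 to 1.89, limma adjusted p = 0.000849). The call was kept in all 14 alternative fits, with log2 fold changes from 1.40 to 1.65. Its cytosolic counterpart PCK1, a pathway partner, was listed at 0 in all 6 libraries. PCK2 is annotated on the plus strand of chromosome 14 from 24094053 to 24110598 in GRCh38. Pyruvate carboxylase (PC), the main entry of pyruvate carbon as oxaloacetate, moved the other way. It was at 22.6, 19.1 and 24.1 TPM in NC and at 17.8, 17.05 and 14.2 TPM in siBCAT1. The groups were separate, and PC fell by 0.40 on the log2 scale (SE 0.12, limma adjusted p = 0.0462). That call was lost without NC replicate 1 (adjusted p = 0.145), NC replicate 3 (0.146), siBCAT1 replicate 1 (0.0758), siBCAT1 replicate 2 (0.0994) or siBCAT1 replicate 3 (0.131). PC shares exon sequence with LRFN4 on the opposite strand, which was at 39.1 TPM in NC and 43.4 TPM in siBCAT1.

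Of the malic enzymes, which decarboxylate malate to pyruvate, only the cytosolic NADP-dependent ME1 passed the test. The gene of ME1 is at chr6:83210389-83431071 (minus strand, GRCh38). ME1 was at 9.38, 11.3 and 9.77 TPM in NC and at 17.4, 18.3 and 18.1 TPM in siBCAT1. The groups were far apart beside their spread. ME1 rose by 1.77-fold (log2 fold change 0.77 ± 0.10 SE, limma adjusted p = 0.00188), and the call was kept in all 14 alternative fits. The mitochondrial NAD-dependent ME2, the most abundant of the 3, was at 71.8, 73.3 and 68.9 TPM in NC and at 85.2, 73.8 and 83.5 TPM in siBCAT1 (log2 fold change 0.18, 95% interval 0.00 to 0.35, limma adjusted p = 0.119). The mitochondrial ME3 was at 7.12, 7.08 and 7.03 TPM in NC and at 12.5, 6.33 and 9.30 TPM in siBCAT1. The siBCAT1 libraries spread to both sides of the tight NC values (limma adjusted p = 0.303). ME1 made up 11.4 ± 0.853% of the summed malic enzymes in NC and 16.7 ± 1.77% in siBCAT1, and ME2 80.6 ± 0.697% and 74.8 ± 0.657% (SD, n = 3, exact permutation p = 0.1 for each, the smallest possible).

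D2HGDH, which oxidises D-2-hydroxyglutarate back to α-ketoglutarate, was at 8.71 ± 0.716 TPM in NC and 9.03 ± 0.688 TPM in siBCAT1 (SD, n = 3). Its groups overlapped, and the 95% interval of the log2 fold change ran from -0.20 to 0.30 (limma adjusted p = 0.775).

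Among the pathway partners, 23 of 26 were tested. Of these, 6 were called higher and 2 lower (34.8%, beside the 27.1% of all genes tested). ADHFE1, LIPT2 and PCK1 were below 1 TPM on average. Besides MRPS36, called partners included the SDH assembly factors SDHAF1 and SDHAF3, the lipoyl transferase LIPT1, the oxoglutarate carrier SLC25A11 and the proton-driven transhydrogenase NNT, all higher. ATP-citrate lyase ACLY, which turns exported citrate back into acetyl-CoA, was called lower. SLC25A11, which exchanges α-ketoglutarate for malate across the inner membrane, was at 51.2, 57.0 and 50.5 TPM in NC and at 71.0, 68.2 and 74.7 TPM in siBCAT1 (log2 fold change 0.42 ± 0.07 SE, limma adjusted p = 0.00636). SDHAF3, an assembly factor that helps to mature the iron-sulphur subunit SDHB, was at 18.7, 25.0 and 22.9 TPM in NC and at 33.3, 32.5 and 30.5 TPM in siBCAT1 (log2 fold change 0.52 ± 0.11 SE, limma adjusted p = 0.0145). SDHAF1, which serves the same subunit, rose from 15.3 ± 0.885 to 21.1 ± 2.57 TPM (SD, n = 3, limma adjusted p = 0.0233). NNT rose from 2.97 ± 0.221 to 5.17 ± 0.450 TPM (limma adjusted p = 0.0118) and LIPT1 from 3.75 ± 0.615 to 6.66 ± 1.77 TPM (0.0404). ACLY fell from 178 ± 6.74 to 153 ± 6.81 TPM (SD, n = 3, limma adjusted p = 0.0331). The call of SDHAF3 was lost without siBCAT1 replicate 1 (adjusted p = 0.0618) and siBCAT1 replicate 2 (0.0588). Those of LIPT1, SDHAF1 and ACLY were each lost without any of NC replicate 1 (0.109, 0.0895 and 0.0933), NC replicate 2 (0.0586, 0.0515 and 0.0501), NC replicate 3 (0.131, 0.0548 and 0.0545) or siBCAT1 replicate 3 (0.102, 0.0689 and 0.0934). LIPT1 was also lost without siBCAT1 replicate 1 (0.111), and SDHAF1 and ACLY without siBCAT1 replicate 2 (0.0747 and 0.0973). Under median-ratio scaling and quantile normalization, SDHAF1 alone of the called partners lost its call (limma adjusted p = 0.0591 and 0.0504). With no filter on low values, SDHAF1 (0.0581), LIPT1 (0.122) and ACLY (0.0617) lost theirs. LIPT1 was also lost with a minimum of 5 TPM (0.0529) and in the replicate block with GC content and length correction (0.0599). The subunits of the mitochondrial pyruvate carrier were not called. MPC1 was at 47.4 ± 3.29 TPM in NC and 40.7 ± 2.24 TPM in siBCAT1 (SD, n = 3, limma adjusted p = 0.0845), and MPC2 at 34.2 ± 1.77 and 40.0 ± 0.911 TPM (0.0510). GOT1, GOT2 and GLUD1, which link glutamate to α-ketoglutarate, were also not called, with limma adjusted p-values from 0.415 (GLUD1) to 0.983 (GOT2).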

How the data were processed

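Poly(A) RNA of 67R cells was sequenced by the authors' provider from a stranded library kit, and per the labels and the study's methods reads were cleaned with fastp, mapped to GRCh38 with HISAT2 and assembled with StringTie (versions not given in the sources used here). The deposited table holds TPM per gene to 2 decimals for 6 libraries, a unit read from the values (each column has nearly the same sum), beside gene length, which was not used as a measurement. No count of reads was used, and the precision is that of 3 libraries per group. Library columns were matched to groups by sample title. Members and lists were chosen with earlier results of these data known.

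Genes averaging 1 TPM or more were tested on log2(TPM + 1) with limma 3.58.1 (R 4.3.3, trend, two-sided) and Benjamini-Hochberg adjustment over 14286 genes. Fold changes on this scale understate those of low genes, and folds of mean TPM are given as such. Shares and ratios of TPM were compared by exact permutation over the 6 libraries. Named genes were BCAT1, every member and called pathway partners, and the other partners and markers were taken from the lists. Some pathway partners enter the counts but are not reported here by name. Members called here had an adjusted p under 0.05. Alternatives were no filter, a minimum of 5 TPM, a pseudocount of 0.1 TPM, scaling by median ratios, quantile normalization, GC content and length correction, a replicate block with and without that correction, a minimum log2 fold change of 0.5, and leaving out each library. Gene positions are those of GENCODE 29 on GRCh38. Promoter windows are those of RefSeq on GRCh38.p14, in which OGDH, SDHC and PDP1 are not listed.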

Additional observations from a re-analysis of the deposited data

How the results depend on the processing

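All 12 called members kept their direction under all 14 alternative fits, and SDHB, MDH1, PCK2, ME1 and BCAT1 also kept their calls in each of them. BCAT1 ranged from a log2 fold change of -2.28 to -2.03 as libraries were left out. With no filter on low values, 960 genes were called lower in all, and among the lower calls were 2 members, 0 kinases or phosphatases, 0 anaplerotic enzymes and 1 pathway partner. A minimum of 5 TPM gave 2 PDH complex subunits called higher. Median-ratio scaling gave 0 there, and took the log2 fold changes of IDH3G, DLST and SDHA to -0.0132, -0.0240 and -0.0124. Quantile normalization gave 2 TCA cycle enzymes higher, 1 PDH complex subunit lower and 5 partners lower, with IDH3G at -0.0421, DLST at -0.0332, DLD at -0.0233 and SDHA at -0.0183. GC content and length correction gave 0 PDH complex subunits higher, 1 lower and 4 partners lower, with DLST at -0.0226, SDHA at -0.0266 and PDPR at 0.00403. A minimum log2 fold change of 0.5 left 1270 genes higher and 887 lower, with 4 and 2 members, 2 and 1 TCA cycle enzymes, 0 PDH complex subunits higher, 0 anaplerotic enzymes lower and 1 partner lower. None of these reversed members was called. Except where fewer genes, fewer libraries or a stricter criterion made the difference by construction, the cause was not tested.

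Samples with the same replicate number correlated at 0.0844, 0.102 and 0.124 in their deviations from the group means. Between NC and siBCAT1 samples with different numbers the correlations ran from -0.0814 to -0.0134. Every library thus correlated best with its own number. The main fit did not pair the samples, and whether the numbers mark a pairing was not tested. With the replicate block, 2773 genes were called higher and 1795 lower, with 9 and 5 members, 2 PDH complex subunits higher and 0 anaplerotic enzymes lower. In that block SDHC (adjusted p = 0.0492), MDH2 (0.0418) and DLAT (0.0450) gained a call and PC lost it (0.0653, limma). The replicate block with GC content and length correction gave 0 anaplerotic enzymes lower and 4 partners lower, with DLST at -0.0226, SDHA at -0.0266 and PDPR at 0.00403.

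As each library was left out in turn, calls over all genes ranged from 1435 to 2276 higher and from 796 to 1430 lower, members from 5 to 9 higher and from 1 to 6 lower, TCA cycle enzymes from 2 to 5 higher and from 1 to 3 lower, PDH complex subunits from 1 to 2 higher, kinases and phosphatases from 0 to 2 lower, anaplerotic enzymes from 0 to 1 lower and partners from 1 to 2 lower. Uncalled members that changed sign ranged from -0.0928 to 0.0654 (PDP1), -0.103 to 0.0650 (PDPR), -0.0535 to 0.0813 (SDHD), -0.0146 to 0.0883 (D2HGDH), -0.0321 to 0.0720 (DLST) and -0.0295 to 0.144 (DLD). TPM keeps no read depth, so counting error at low genes such as ME3 or LIPT1 cannot be given.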
